A study of Homo sapiens with 4 samples.

Results

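RAB proteins are small GTPases that mark the membranes of the secretory and endocytic pathways. The 48 RAB genes described here are those in the deposited transcript table whose symbol is RAB followed by a number, with at most 1 letter and further digits after it, and that have at least 1 protein-coding transcript listed. They hold 86 of the 26348 protein-coding transcripts in the table, and 48 of its 12120 genes with such a transcript. RNA-seq was done in the established human cell line MDA-MB-231, a model of triple-negative breast cancer, treated for 24 h with DMSO, the solvent, or with 10 µM KH-3, a compound found in a screen for inhibitors of the RNA-binding protein HuR. Each condition had 2 libraries. The values that could be used give 1 mean normalized read count per transcript, taken by the authors over libraries, and no value per library. The study's methods also name a group at a lower dose of KH-3, not analysed here, and whether its libraries enter the mean is not stated. Levels below are therefore pooled over DMSO and KH-3 cells, the spread between replicates and the depth of each library are unknown, and no difference between KH-3 and DMSO is given.

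A RAB protein works as a switch. It binds GTP on its own membrane, where it recruits effectors such as tethers, motors and sorting proteins, and it is released as the GDP form. Guanine nucleotide exchange factors (GEFs) turn it on, GTPase-activating proteins (GAPs) turn it off, a prenyl anchor holds it in the membrane, and GDP dissociation inhibitors (GDIs) carry it through the cytosol. In breast cancer cells RABs are best known for recycling of integrins and growth factor receptors, and for the release of vesicles and proteases.

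The cell line was checked against markers. All 9 markers expected in it were listed, among them VIM, AXL, CAV1 and EGFR, at levels between 221 and 3786 mean normalized reads per kb. Of the 4 genes that triple-negative mesenchymal cells lack, only ERBB2 was listed, at a level of 24.1, while ESR1, PGR and CDH1 had no protein-coding row. Of the 10 genes listed as markers of other cell types, PTPRC, CD3E, ALB and KRT5 had no such row. PECAM1, COL1A1 and COL3A1 lay at 29.7 or below, and CD68, KRT8 and KRT18 lay at 1264, 331 and 3542. CD68, KRT8 and KRT18 were not low, so they do not set the cell line apart from other cell types. The source of their reads was not tested.

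The sequences at which RAB transcripts differ are shown first, since they carry the isoform results. Alternative internal exons are shown for RAB1A, RAB5B and RAB6A, chosen after their values were seen. Other RAB genes also had transcripts that differ by exons. RAB1A, which acts between the ER and the Golgi, has a 96-base exon 3 at chr2:65097971-65098066 on the minus strand of hg38. Transcript RAB1A-001 holds this exon and RAB1A-003 skips it, and since 96 is a multiple of 3 the reading frame goes on. RAB5B, which acts at early endosomes, has a 152-base exon 3 at chr12:55989947-55990098 on the plus strand, held by the coding transcript RAB5B-004 and skipped by RAB5B-002, which is annotated as a nonsense-mediated decay transcript. Each line gives the last 15 bases of the upstream exon in lower case and the first 15 bases of the downstream exon in capitals.
RAB1A-001, exon kept: cttcttaggtttgcaGATGATACATATACA
RAB1A-003, exon skipped: cttcttaggtttgcaTGGGACACAGCAGGC
RAB5B-004, exon kept: agagcaccattggagCGGCCTTCCTCACCC
RAB5B-002, exon skipped: agagcaccattggagGAAACCTTTGCCCGA

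RAB6A, a RAB of the Golgi, has a pair of alternative forms of exon 4 of 106 bases each, of which a transcript holds one. RAB6A-001 holds the exon at chr11:73718785-73718890 and RAB6A-002 the exon at chr11:73718613-73718718, both on the minus strand. The exons differ at 31 of the 106 bases and are 70.8% identical. Their first 30 bases, the window of this size with the most differences, 12, are shown with the differing bases in capitals.
RAB6A-001, chr11:73718861-73718890: AtCAgGCtTcaGCtGtgggaTacTgcGggt
RAB6A-002, chr11:73718689-73718718: GtACgATtGcaATtAtgggaCacAgcAggt

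HuR is known to bind AU-rich stretches in 3′UTRs, so the 3′UTRs of the most read coding transcript of each gene were searched on the transcript strand for the pentamer ATTTA and the nonamer TTATTTATT, which contains it. These are letters in the reference and say nothing about binding. For 47 of the 48 genes the transcript was found in the reference with a full coding sequence, and RAB12 was the exception. ATTTA occurred in 41 of the 47 3′UTRs (87.2%), against 72.9% of 11437 genes searched the same way. The RAB 3′UTRs were longer, with a median of 2146 bases against 1269, and over all genes weighted to the same deciles of 3′UTR length the share with ATTTA was 83.9%. Per kb of 3′UTR there were 2.53 pentamers in RAB genes and 2.33 in all genes. The 6 RAB 3′UTRs without one were those of RAB1A, RAB5C, RAB8A, RAB17, RAB26 and RAB32. For RAB1A this covers RAB1A-003 alone, since RAB1A-001, which reaches further at its 3′ end, was not searched.

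The nonamer occurred in 7 of the 47 RAB 3′UTRs (14.9%), against 9.26% of all genes and 11.9% at the same 3′UTR lengths. Of these 7 genes, 4 belong to the secretory RABs (RAB3A, RAB3B, RAB27A and RAB27B), whose median 3′UTR was 2935.5 bases. The ER-Golgi RABs, with a median of 2875 bases, had none, and the 3′UTR of RAB3A has 686 bases. A link between the groups and 3′UTR length was not tested. The first site of each is shown with the nonamer in capitals, and RAB3A held 3 sites and RAB21 held 2.
RAB3A, chr19:18197328-18197356, minus strand: cccgtcacccTTATTTATTattgtagcta
RAB3B, chr1:51914564-51914592, minus strand: aaattcaaatTTATTTATTcatttatttt
RAB27A, chr15:55204179-55204207, minus strand: gtgaaaagtcTTATTTATTaaagtggttt
RAB27B, chr18:54890929-54890957, plus strand: tatcaaaataTTATTTATTtcagtcaatt
RAB4B, chr19:40796869-40796897, plus strand: ctagtacctgTTATTTATTacctggaggc
RAB21, chr12:71790966-71790994, plus strand: gtatccaaatTTATTTATTtttttatttc
RAB31, chr18:9859805-9859833, plus strand: aagtaagcctTTATTTATTactttttgga

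The coding sequences were far more alike in size than the 3′UTRs. In the most read coding transcript of each gene, coding length had a median of 642 bases in RAB genes against 1365 in all genes. It ran from 300 bases in RAB40B-002 to 846 in RAB40C-202, and the other coding transcript of RAB40B, RAB40B-001, has 837. The 3′UTRs ran from 292 bases in RAB24 to 14613 bases in RAB21. The level of a gene was computed per length. It is the sum over its protein-coding transcripts of the mean normalized read count divided by the transcript length in kb.

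By this level RAB7A, RAB11A, RAB1A, RAB1B and RAB5C led the family. RAB7A, the RAB of late endosomes and lysosomes, stood at 2553 mean normalized reads per kb, above 98.3% of all genes. RAB11A, which directs recycling endosomes, stood at 2111, RAB1A at 1958 and its paralog RAB1B at 1321. RAB5C, one of the RABs of early endosomes, stood at 1303. Each of these 5 lay above at least 95.4% of all genes. With only the most read transcript of each gene RAB11A ranked 16 in place of 2, and its share of the summed level was 2.39% in place of 11.1%. They represent 4 different steps of membrane traffic, namely ER to Golgi, early endosome, recycling and late endosome.

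The next 5 genes were RAB10 at 846, RAB6A at 755, RAB8A at 698, RAB11B at 651 and RAB35 at 573. RAB10, RAB8A and RAB35 act in recycling and in delivery to the plasma membrane. The 10 highest genes held 66.8% of the summed RAB level of 19102. The 24 lowest genes held 7.57%. The lowest member, RAB7B, stood at 3.41, which is 748 times lower than RAB7A.

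RAB genes were spread over the whole range of expressed genes. The median RAB level was 190 against 117 for all 12120 genes, and 29 of the 48 lay above that median (60.4%). Above the upper quartile of all genes, 306, lay 18 RAB genes (37.5%), and below the lower quartile, 36.6, lay 13 (27.1%). Their summed level was 0.394% of that of all genes, and they made up 0.396% of the genes. No replicate error can be attached to any level, so the order of neighbours such as RAB1B and RAB5C is not established.

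**Figure D1:**
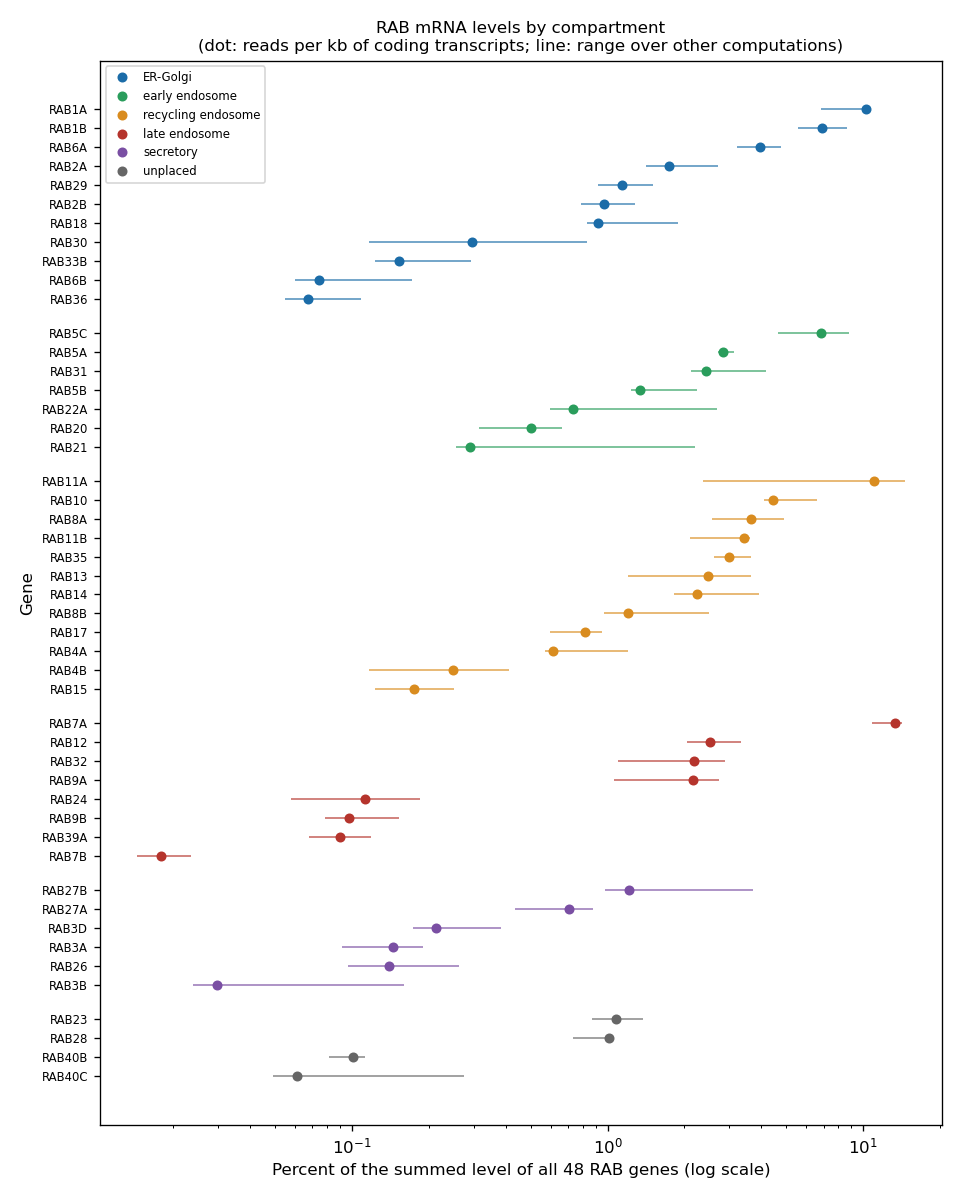
Level of each of the 48 RAB genes as a percent of their summed level (x axis, log scale), grouped by compartment. Dots stand for mean normalized reads per kb of protein-coding transcripts and lines for the range over 5 other ways of computing the level. RAB7A is highest at 13.4% and RAB7B lowest at 0.0179%, and the line of RAB11A reaches down to 2.39%.

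The ER-Golgi RABs, of which 11 of 15 on the list were members here, held 26.5% of the summed level. RAB1A and RAB1B led them, followed by RAB6A, and by RAB2A at 333, which acts in transport between the ER and the Golgi. RAB29, a RAB of the trans-Golgi, stood at 217, RAB2B at 186 and RAB18, known from the ER and lipid droplets, at 175. A low tier was made up of RAB30 at 56.4, RAB33B at 29.1, RAB6B at 14.2 and RAB36 at 12.9. The group thus spanned 152-fold, with 7 of 11 above the median of all genes.

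All 7 early endosome RABs were members and together held 14.95% of the summed level. RAB5C made up 45.6% of the group. RAB5A stood at 541, RAB31 at 466 and RAB5B at 255. RAB22A at 140, RAB20 at 95.8 and RAB21 at 55.4 were lower, and no early endosome RAB lay below the lower quartile of all genes. RAB21, which is known for binding integrins, depended most on the scale, because its listed coding transcript is 15546 bases long. Its mean normalized read count of 861 placed it 19th of the 48 genes by reads and 33rd per kb.

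The recycling endosome RABs held the largest share of the 6 groups by this level, 33.3%, with 12 of 13 on the list as members and 9 of these above the median of all genes. With only the most read transcript of each gene the share was 27.6%, against 27.02% for the ER-Golgi RABs. Their median level of 451 was also the highest of the groups. After RAB11A, RAB10, RAB8A, RAB11B and RAB35 came RAB13 at 474, RAB14 at 429 and RAB8B at 229. RAB17, a RAB known from epithelial cells, stood at 156. RAB4A at 117, RAB4B at 47.7 and RAB15 at 33.3 were the lowest 3 of the group. RAB25, the epithelial relative of RAB11A, was not a member.

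The late endosome RABs fell into a high and a low tier. RAB7A alone held 65.1% of the group. RAB12 stood at 481, RAB32 at 418 and RAB9A at 411, and RAB9A is known for transport from late endosomes to the trans-Golgi. The other 4 lay between 21.5 and 3.41, namely RAB24, RAB9B, RAB39A and RAB7B. All 4 were below the lower quartile of all genes, and no late endosome RAB lay between 21.5 and 411. With only the most read transcript of each gene RAB9A stood at 173, inside this range.

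The secretory RABs, which serve regulated exocytosis, were low. The 6 members of 8 on the list held 2.45% of the summed level, and their median was 34.2 against 190 for all RAB genes. RAB27B at 232 and RAB27A at 135, both known for the release of exosomes and secretory granules, were the only ones above the median of all genes. RAB3D stood at 40.9, RAB3A at 27.6, RAB26 at 26.6 and RAB3B at 5.65. RAB27B has a transcript of 7281 bases and a mean normalized read count of 1687, so without division by length the secretory share was 5.28%. Of the 4 genes placed in no compartment, RAB23, known from cilia and Hedgehog signalling, stood at 206, RAB28 at 194, RAB40B at 19.2 and RAB40C at 11.7.

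The RefSeq annotation holds 63 protein-coding genes whose symbol follows the same pattern. The 15 that were not members were RAB3C, RAB6C, RAB6D, RAB19, RAB25, RAB33A, RAB34, RAB37, RAB38, RAB39B, RAB40A, RAB41, RAB42, RAB43 and RAB44. Of these, RAB34 was listed with 4 transcripts of other types, the highest being a nonsense-mediated decay transcript with a mean normalized read count of 64.9. Since the lowest mean normalized read count in the table was 7.34, the lack of a row does not show that a gene was silent.

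Families of paralogs, which share a number and differ by a letter, ranged from even to dominated by 1 member. The table held 12 such families with 26 members. In the RAB7, RAB6 and RAB9 families the A member held 99.9%, 98.2% and 95.7% of the family level. The ratio was 53.2 between RAB6A and RAB6B, the latter being known from neurons, and 22.2 between RAB9A and RAB9B. In the RAB3 family the ratio of RAB3D to RAB3B was 7.23, and in the RAB5 family that of RAB5C to RAB5B was 5.10.

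The other families were more even per kb. RAB1A was 1.48 times RAB1B, RAB40B 1.65 times RAB40C, RAB27B 1.71 times RAB27A, and RAB2A 1.79 times RAB2B. RAB4A was 2.44 times RAB4B and RAB8A 3.04 times RAB8B. RAB11A was 3.24 times RAB11B, but this order rested on the short transcripts of RAB11A. With only the most read transcript of each gene, RAB11A held 41.8% of the family in place of 76.4%. RAB11A-001 then stood at 349 against 486 for RAB11B-001. By mean normalized reads, RAB4A had 345 and RAB4B 54.0, and RAB27B had 1687 and RAB27A 400. RAB3D had 175, RAB3B 72.6 and RAB3A 42.1, and RAB5C had 2143 and RAB5B 859. Which families were the more even ones thus depended on the scale.

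**Figure D2:**
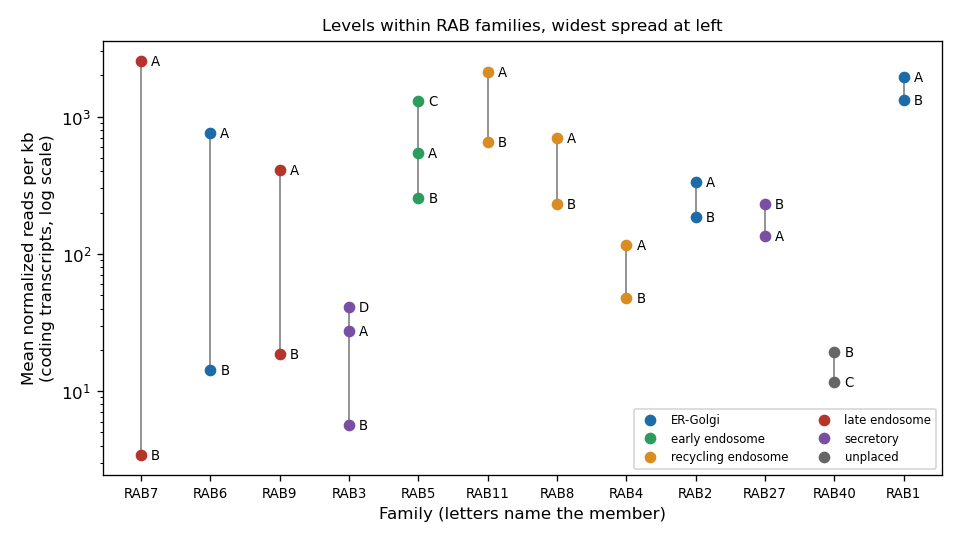
Levels of the 26 genes in 12 RAB families (y axis, mean normalized reads per kb of protein-coding transcripts, log scale), ordered by the ratio of highest to lowest member, with colours for compartments. The RAB7 family is widest with a ratio of 748 and the RAB1 family narrowest with 1.48.

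Paralogs shared few long identical stretches of coding sequence. The 16 pairs within families were between 64.4% (RAB7A and RAB7B) and 79.8% (RAB3A and RAB3D) identical over their aligned coding bases. Only RAB40B and RAB40C shared a run of at least 50 identical coding bases, of 55 bases. Stretches of 50 bases were used as a stand-in for reads, since the read length is not given in the sources used here.

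Some RAB transcripts shared sequence with other genes. Of the 47 most read coding transcripts found in GENCODE release 44, 31 shared under 1% of their 50-base stretches with another gene on the same strand, and 5 shared over 10%. For RAB4B the share was 100%, mostly with the readthrough gene MIA-RAB4B, and for RAB24 it was 74.1%, with the neighbouring MXD3. RAB13 shared 56.9% and RAB5C 43.9%, each mostly with a readthrough gene without a symbol. RAB6A shared 21.2%, above all with RAB6C, a retrogene derived from RAB6A. The authors counted reads on GENCODE release 24, and whether these partner transcripts were part of it was not checked. On the opposite strand, RAB23-001 overlapped BAG2 over 40.1% of its stretches, RAB8A-001 a long non-coding RNA over 36.6% and RAB1B-001 other genes over 33.2%. Whether strand was used in counting is not given in the sources used here, so the levels of the genes named in this connection are uncertain.

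A single coding transcript was listed for 23 of the 48 genes (47.9%), against 36.7% of all genes. In the 25 genes with more than 1, the most read transcript held a median of 87.2% of the coding reads, against 70.9% over all such genes, and 10 of the 25 had a share of at least 90%. The lowest shares were those of RAB30 (45.1%), RAB11A (49.8%), RAB1A (54.0%) and RAB27A (55.3%).

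RAB1A was split between transcripts that differ by the exon shown above. The exon-skipping RAB1A-003 had a mean normalized read count of 1707 over 1333 bases, a level of 1281. The exon-holding RAB1A-001 had 1261 over 2447 bases, a level of 515, and the third transcript, RAB1A-004, had a level of 162. RAB1A-003 also ends earlier than RAB1A-001, and only 3.74% of its 50-base stretches occur in no other listed RAB1A transcript. Whether the estimate for RAB1A-003 reflects the skipped exon or the shorter 3′ end cannot be told apart.

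RAB6A was listed with both of its alternative forms of exon 4. RAB6A-002 had a mean normalized read count of 1454 and a level of 471, and RAB6A-001 had 591 and a level of 174. RAB6A-006, which carries the same exon 4 as RAB6A-001, added a level of 109. Of the 50-base stretches of RAB6A-002, 4.42% occur in no other listed RAB6A transcript.

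RAB11A and RAB7A were listed with the most coding transcripts of the 10 highest genes, 4 and 5. In RAB7A the transcript RAB7A-001, with 4625 mean normalized reads, held 89.0% of the coding reads, and 2 of the other 4 lay near 20. In RAB11A the short transcripts RAB11A-002 (978 bases), RAB11A-005 (635 bases) and RAB11A-003 (1396 bases) had levels of 722, 553 and 487, each above the 349 of RAB11A-001 with its 4930 bases. RAB11A-001 nevertheless had the highest read count of the 4, 1721.

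Other transcript types were listed for 18 of the 48 genes (37.5%), against 53.0% of all genes with a coding transcript. They numbered 28 transcripts and held 7.69% of the reads of RAB genes, against 11.8% over all such genes. Per kb the shares were closer, at 18.4% of the level of RAB genes against 19.9% over all such genes. In 4 genes they had more reads than the coding transcripts, and in 7 genes a higher level per kb. The matching shares over all genes were not computed. In RAB40C, a subunit of a ubiquitin ligase, the retained-intron transcript RAB40C-002 had 127 mean normalized reads and the coding transcripts 30.1. In RAB13, which acts at tight junctions and recycling endosomes, the processed transcript RAB13-002 had 784 and the coding RAB13-001 had 557. Per kb this order was reversed, with levels of 369 for RAB13-002 and 474 for RAB13-001. In RAB24 and RAB26 retained-intron transcripts held 58.6% and 50.9% of the reads, at low counts. Per kb they stood at 21.3 against 21.5 for the coding transcript in RAB24, and at 34.4 against 26.6 in RAB26. Few 50-base stretches occur in no other listed RAB26 transcript, 4.43% for the coding RAB26-001 and 0.0598% for RAB26-002.

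RAB5B stood apart for its nonsense-mediated decay transcript, whose exon junction is shown above. RAB5B-002 had a mean normalized read count of 778, close to the 832 of the coding RAB5B-004, and 47.9% of RAB5B reads fell on other types. Only 1.65% of the 50-base stretches of RAB5B-002 and 2.63% of those of RAB5B-004 occur in no other listed RAB5B transcript, so few of their bases tell them apart. RAB4B-008, also a nonsense-mediated decay transcript, had 37.2 against 54.0 for the coding RAB4B-006. RAB21-003, a retained-intron transcript of 761 bases, had 346 reads against 861 for the coding transcript and, per kb, a level of 455 against 55.4. Only 7.72% of the 50-base stretches of RAB21-003 occur in no other listed RAB21 transcript, so its level is uncertain in the same way.

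**Figure D3:**
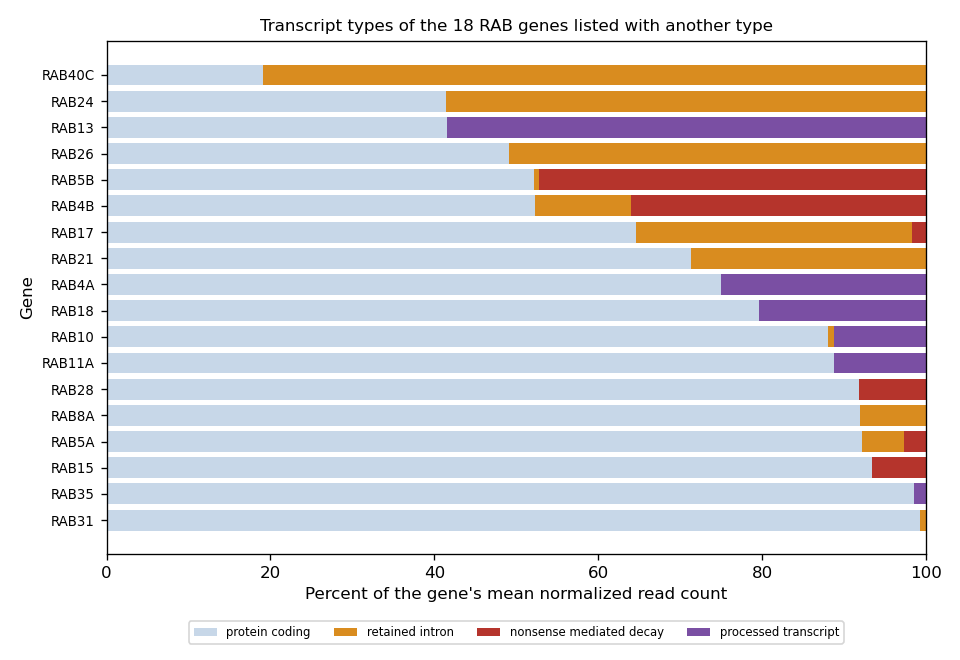
Percent of the mean normalized read count of each gene on protein-coding, retained-intron, nonsense-mediated decay and processed transcripts (x axis), for the 18 RAB genes listed with another type than protein-coding. Other types hold 80.8% in RAB40C and 0.713% in RAB31, the ends of the range.

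The list of prenylation, escort and GDI factors had 8 genes, of which 7 had a coding transcript listed. All 7 lay above the median of all genes. Their place ran from above 57.4% of all genes for CHM to above 98.6% for GDI2. GDI2, which keeps RABs soluble, stood at 2933, above every RAB gene per kb, while by mean normalized reads it had 4880 and RAB7A 5195. RABGGTB, the catalytic subunit of RAB geranylgeranyl transferase, stood at 924, while its partner RABGGTA was listed with other transcript types alone. The escort proteins CHML and CHM stood at 193 and 154.

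The lists of GEFs, GAPs and effectors had lower medians than these factors, whose median was 231. The 35 listed GEFs of 38 had a median of 104, with SBF1 (402), CCZ1 (381) and ANKRD27 (248) highest and DENND6B (5.27) lowest. CCZ1 and its partners MON1B (157) and MON1A (46.4) form the exchange factor of RAB7A. CCZ1 and CCZ1B are near-identical copies, so the division of reads between them is uncertain. The 35 listed GAPs of 36 had a median of 140, led by RAB3GAP1 (364), TBC1D14 (307) and TBC1D9B (264), with SGSM1 (1.84) lowest. In these lists 15 GEFs and 20 GAPs lay above the median of all genes. The side on which a list's median fell depended on the scale. The GEF median was 0.886 times that of all genes, but 1.08 times without division by length and 1.21 times with all transcript types. The GAP median was 1.197 times that of all genes, but 0.908 times with a minimum of 50 mean normalized reads.

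Of 48 effector symbols, 43 were listed, with a median of 142 and 25 above the median of all genes. The effector median was 1.21 times that of all genes, but 0.881 times with a minimum of 50 mean normalized reads. UNC13D (741), an effector of RAB27 in granule release, RABEP1 (625), an effector of RAB5, and USO1 (613), a tether that RAB1 recruits, were highest, and RAB11FIP4 (1.86) was lowest. Among RAB5 effectors EEA1 stood at 134 and APPL1 at 247. On the same list RBSN at 97.9, APPL2 at 49.8 and RABEP2 at 41.9 lay below the median of all genes. Among the RAB11 family interacting proteins RAB11FIP1 stood at 294, RAB11FIP5 at 177, RAB11FIP3 at 142 and RAB11FIP2 at 61.4. The synaptotagmin-like effectors of RAB27 were low, with SYTL4 at 68.3, SYTL3 at 45.1 and SYTL2 at 6.49, and SYTL1 and SYTL5 had no row for a coding transcript.

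**Figure D4:**
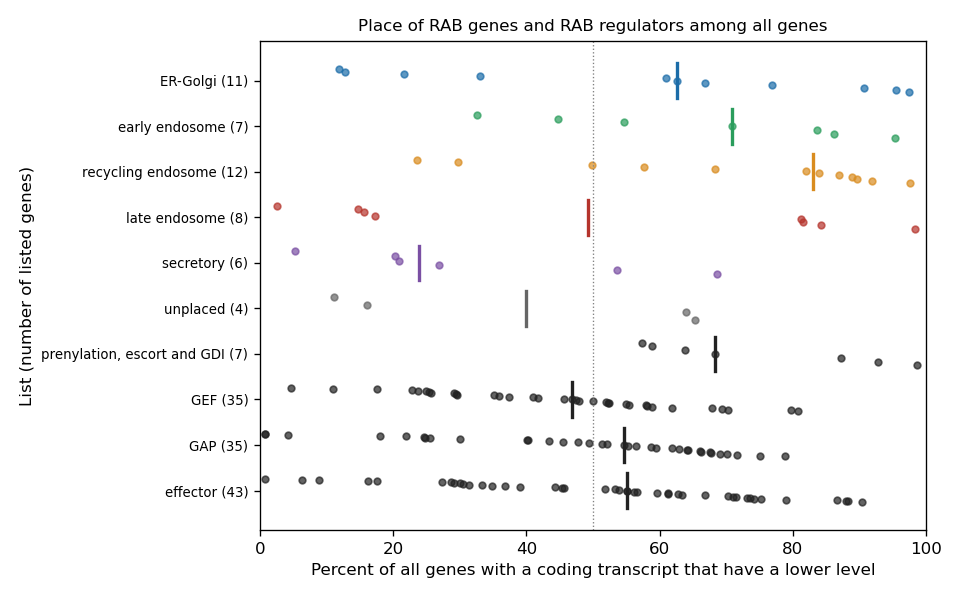
Percent of all genes with a protein-coding transcript that have a lower level (x axis) for the 6 groups of RAB genes and the 4 lists of RAB regulators and effectors (y axis). Each point is a gene, thick bars are medians and the dotted line marks the middle of all genes. The recycling endosome RABs have the highest median of the RAB groups and the secretory RABs the lowest.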

How the data were processed

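Total RNA of MDA-MB-231 cells, 2 libraries per condition, was sequenced on an Illumina HiSeq system after preparation with a TruSeq mRNA kit. The authors aligned reads to GENCODE release 24 transcripts using STAR, counted reads per transcript with eXpress and compared groups with DESeq2. Versions are not given in the sources used here. For each transcript the deposited table holds a mean normalized read count, a signal averaged over libraries by the authors. Which libraries enter it is not stated. The table also holds the authors' log2 fold change, p-value and q-value of KH-3 against DMSO, which were not used.

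Gene symbol, transcript type and length were read from the table. Levels were computed as mean normalized reads per kb, summed over the protein-coding transcripts of a gene. Transcripts were matched by ID without version to GENCODE release 44 (hg38), where 113 of 114 transcripts of RAB genes were found, 67 with the same length as in release 24. Exons, 3′UTRs and sequences come from release 44. The longest complete coding sequence of each family member was aligned globally with biopython 1.88. RAB genes, compartments and regulator lists were chosen with earlier results of these data known. Named are the highest and lowest member of each compartment, the 10 highest, all family members, and the 3 highest and the lowest of each regulator list. Other members and effectors are named to complete a group and were chosen after their values were seen. Alternatives concerned length, transcript types, the most read transcript alone and a minimum of 50 mean normalized reads. Protein sequences were not used here. The level computation was tested on simulated data. Python 3.11.15, numpy 2.4.6, pandas 2.3.3 and matplotlib 3.10.9 were used.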

Additional observations from a re-analysis of the deposited data

How the results depend on the processing

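Without division by length, the secretory share of the RAB sum was 5.28%. On this scale the median of the prenylation, escort and GDI factors was 3.96 times that of all genes in place of 1.97. Other transcript types then held 7.69% of RAB genes in place of 18.4%. With a minimum of 50 mean normalized reads, the GEF median was 0.588 times that of all genes in place of 0.886, and RAB3D held 87.8% of its family. With all transcript types RAB40B held 23.2% of its family, and with only the most read transcript RAB11A held 41.8%. A value counted as moved when it changed by more than a factor of 1.5. An effective length, 200 bases shorter, moved no group, family or gene that much. Without division by length 23 of the 48 single genes moved, with all transcript types 8 and with the most read transcript 4. The recycling endosome RABs held the largest share under each of the 5 alternatives, and RAB7A ranked first or second and RAB7B last in each setting that listed them. No paired analysis was possible because the usable values are means over libraries. Leaving out libraries and comparisons between KH-3 and DMSO were not run for the same reason, nor were another pseudocount or a fit without a filter. Depth is unknown, and transcripts under 7.34 mean normalized reads were not listed.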
